A study of Mus musculus with 11 samples.

Results

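A group of 32 genes that make cholesterol, sense it, move it within the cell and export it was followed in regulatory T (Treg) cells carrying the vTreg53 T cell receptor. The genes came from a list of names, chosen with earlier results of these data known, and not from a cut on their measured values. All 32 were found among the 52997 genes of the deposited count table. They comprised 5 genes of SREBP control, 18 enzymes of sterol synthesis, 4 genes of intracellular transport and storage, and 5 genes of LXR signaling, efflux and receptor turnover. All 32 passed the filter on low counts and were tested.

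The cells were clonotype+ CD45.2+ Treg cells from male vTreg53 transgenic donors on the C57BL/6 background, transferred into male CD45.1 B6 recipients. The labels give an age of 15 weeks without saying whether it is that of donors or recipients, and the methods describe donors and recipients as young adults at transfer. Recipients were primed 6 weeks after transfer and boosted 1 week later with adjuvant holding Fat1562, a peptide recognized by the vTreg53 receptor, or they were controls. The labels call the control mice unimmunized and name PBS, whereas the study's methods describe adjuvant alone. Each of the 11 Smart-seq2 libraries held 1000 double-sorted cells from pooled spleen and lymph nodes (Spl/LN) or from visceral adipose tissue (VAT). There were 3 control and 3 Fat1562 libraries from Spl/LN, and 2 control and 3 Fat1562 libraries from VAT. All cells carried the receptor of a single clone, first found in VAT, and donors carried a Foxp3-GFP reporter. The labels do not say whether libraries of a group came from separate mice, so p-values measure the spread between these libraries.

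Library totals ran from 4490242 to 6570057 counts, and libraries of a group differed by more than counting noise. The 7 Treg markers (Foxp3, Cd4, Cd3e, Il2ra, Ctla4, Ikzf2 and Trac) summed to between 43329 and 66093 normalized counts in a library. The 7 adipocyte markers summed to at most 24.99. Values below are normalized counts, in which each library's counts were rescaled by its TMM factor and total to the depth of an average library. A gene was called higher or lower at an adjusted p under 0.05 in edgeR's quasi-likelihood test over 12932 genes. Log2 fold changes are given with the standard error (SE) of the fit, and group means with the SD between libraries.

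Animal cells make cholesterol from acetyl-CoA through mevalonate, squalene and lanosterol. The transcription factor SREBP-2, encoded by Srebf2, turns on these enzymes when sterol in the endoplasmic reticulum is low. Its precursor is escorted to the Golgi by SCAP and held back by the INSIG proteins when sterol is plentiful. Sterol surplus instead activates the nuclear receptors LXRα (Nr1h3) and LXRβ (Nr1h2), which turn on the exporters ABCA1 and ABCG1. T cells raise sterol synthesis when they divide, and Treg cells also depend on the mevalonate branch for prenyl groups.

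The promoter sequence of these genes is shown first, because SREBP-2 acts on its target genes through sequence of this kind. RefSeq promoter windows (GRCm38.p6, 250 bases before to 50 after the start site) were found for 26 of the 32 genes. The motifs searched, on both strands, were CACCCCA (the core of the classical sterol regulatory element), CACNCCA (a looser form, which takes in every match of the first), CCAAT (the box of the partner factor NF-Y) and CACGTG (a palindromic E-box). CACCCCA was present in 4 of 26 windows (15.4%; Srebf2, Acat2, Hmgcs1 and Soat1), against 7.5% of 27025 genes. CACNCCA was present in 7 (26.9%) against 18.3%, and CACGTG in 5 (19.2%) against 7.24%. CCAAT was present in 20 (76.9%) against 37.9%. The 27025 genes were not limited to those that passed the filter on low counts, as the 32 did, and no share among tested genes was computed. A match is a run of letters and not a measured binding site.

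The 250 bases before the start site are printed for Srebf2 and for 3 synthesis enzymes. These are 3 of the 5 enzymes called lower in VAT than in Spl/LN after Fat1562. Not printed are Sc5d, whose window held CCAAT and CACGTG and no CACCCCA, and Dhcr7, whose window held none of the motifs searched. Capitals mark CACCCCA and CCAAT, with CCAAT on the opposite strand reading ATTGG. Srebf2 (chr15:82147019-82147268, + strand) held CACCCCA 161 bases and CCAAT 135 bases before its start site. Hmgcs1 (chr13:119690101-119690350, + strand) held CACCCCA 136 bases before its start site. Mvd (chr8:122443423-122443672, - strand) and Cyp51 (chr5:4104698-4104947, - strand) held CCAAT and no CACCCCA in this window. Distances are counted to the RefSeq start site. The GENCODE annotation starts Srebf2 at 82147181 and Cyp51 at 4104746, so the printed bases nearest the RefSeq start lie within these GENCODE genes.
Srebf2: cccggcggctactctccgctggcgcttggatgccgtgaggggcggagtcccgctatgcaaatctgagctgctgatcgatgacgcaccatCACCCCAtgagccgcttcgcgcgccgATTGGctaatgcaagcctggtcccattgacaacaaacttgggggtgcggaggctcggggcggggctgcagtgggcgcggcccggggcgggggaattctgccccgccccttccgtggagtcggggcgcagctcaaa
Hmgcs1: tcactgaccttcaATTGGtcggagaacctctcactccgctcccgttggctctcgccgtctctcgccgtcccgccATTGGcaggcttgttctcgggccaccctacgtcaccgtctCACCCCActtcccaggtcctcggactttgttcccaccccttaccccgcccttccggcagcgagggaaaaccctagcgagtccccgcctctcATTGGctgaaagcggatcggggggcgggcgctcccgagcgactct
Mvd: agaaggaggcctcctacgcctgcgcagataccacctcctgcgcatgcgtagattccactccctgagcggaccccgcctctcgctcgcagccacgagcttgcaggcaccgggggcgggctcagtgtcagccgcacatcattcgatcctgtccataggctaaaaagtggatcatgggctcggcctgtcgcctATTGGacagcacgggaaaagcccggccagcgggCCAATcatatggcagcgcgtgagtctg
Cyp51: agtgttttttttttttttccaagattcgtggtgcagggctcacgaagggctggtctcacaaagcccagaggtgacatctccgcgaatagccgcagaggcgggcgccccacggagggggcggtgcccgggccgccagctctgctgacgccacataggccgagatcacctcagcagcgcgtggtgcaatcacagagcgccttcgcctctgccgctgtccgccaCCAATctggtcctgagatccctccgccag

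Among the 32 genes, 10 were called by the main edgeR fit in at least 1 comparison or in the interaction of tissue and Fat1562. The other 22 were called in none by that fit. Of these 22, 5 (Insig1, Npc2, Pmvk, Mvk and Mylip) were called under at least 1 other setting or with 1 library left out, and 17 under none. The called genes were Srebf2, the enzymes Hmgcs1, Mvd, Cyp51, Nsdhl, Hsd17b7, Sc5d and Dhcr7, and the exporters Abca1 and Abcg1. The calls after Fat1562 between tissues were all lower in VAT, and the map of single libraries shows the values behind them.

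**Figure D1:**
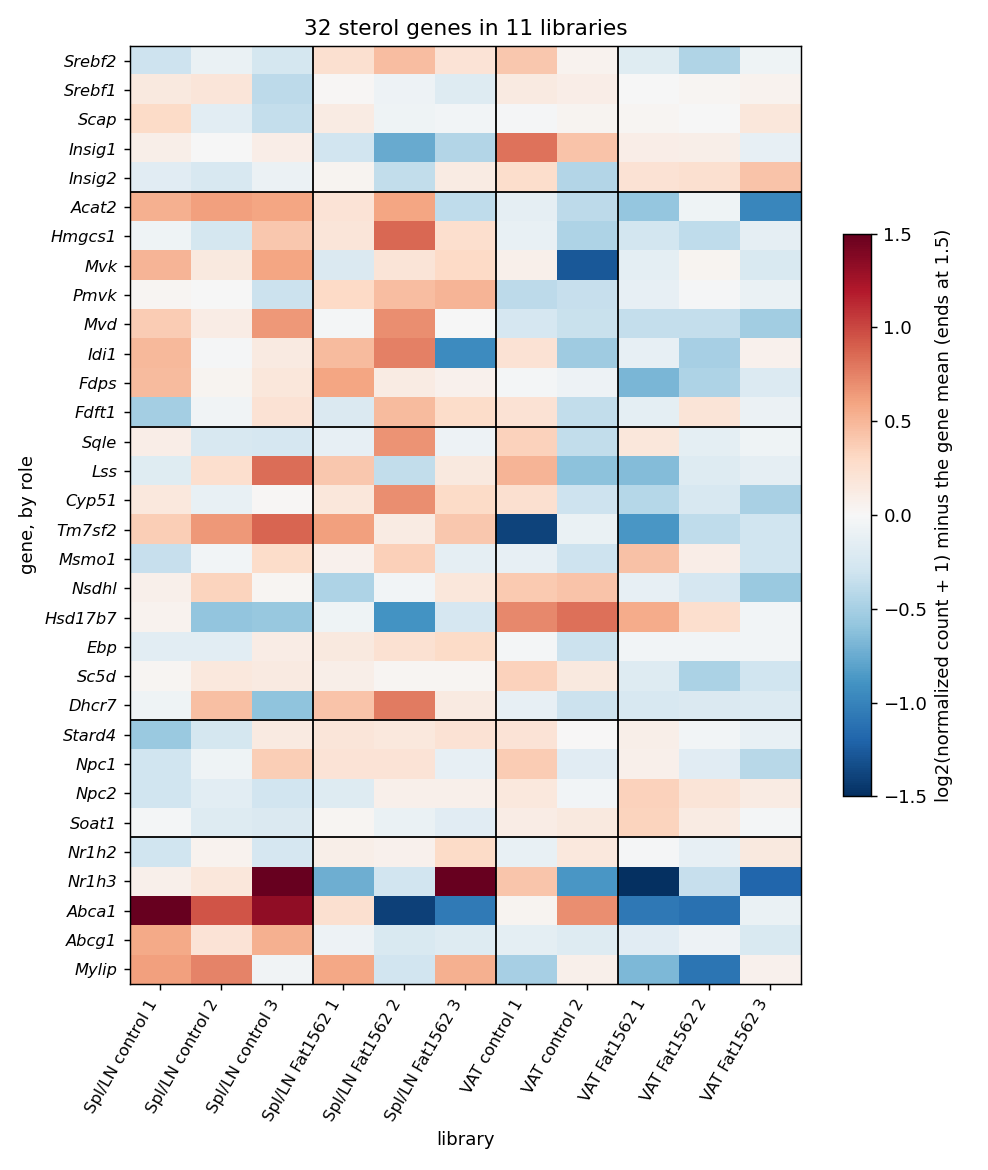
Heat map of the 32 genes (rows, by role) in the 11 libraries (columns, by group), coloured by log2(normalized count + 1) minus the gene's mean over libraries, with the colour scale ending at 1.5 in either direction. Abca1 is highest in the 3 control Spl/LN libraries, and Spl/LN Fat1562 replicate 2 holds the highest value of 7 of the 18 synthesis enzymes.

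Between VAT and Spl/LN of control mice, 2 of 32 genes were called higher (6.25%, against 9.09% of all genes tested) and 1 lower (3.12%, against 7.17%). The median log2 fold change of the 32 was -0.07, beside -0.03 over all genes. After Fat1562, the same tissue comparison called 0 genes higher (8.26% of all genes) and 6 lower (18.8%, against 6.73%), with a median of -0.24 beside -0.01. At an unadjusted p under 0.05, 3 of the 32 were higher there and 11 lower, and DESeq2 called 1 higher and 7 lower. Fat1562 against control in Spl/LN called 1 gene higher (3.12%, against 2.58%) and 2 lower (6.25%, against 1.40%), with a median of 0.05 beside 0.00. Fat1562 against control in VAT called 0 higher (4.32% of all genes) and 2 lower (6.25%, against 3.97%), with a median of -0.08 beside 0.01. No gene was higher there at an unadjusted p under 0.05 either. DESeq2 called 0 higher and 4 lower, as did a filter at a mean above 50, the added genes being Srebf2 and Insig1. The interaction of tissue and Fat1562 was called higher for 1 gene (3.12%, against 1.70%) and lower for 1 (3.12%, against 2.02%). These comparisons share libraries in pairs, so they are given side by side and are not independent of each other.

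Counted by overlap instead, the libraries of both groups were fully apart, with VAT higher, for 6 of the 32 genes in control mice (21.0% of all genes) and lower for 8 (20.4%). In Fat1562 mice VAT was fully higher for 4 (18.8% of all genes) and fully lower for 11 (17.4%). After Fat1562, Spl/LN was fully higher than control for 6 (11.4%) and fully lower for 3 (9.84%), and VAT fully higher for 1 (21.1%) and fully lower for 9 (20.0%).

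**Figure D2:**
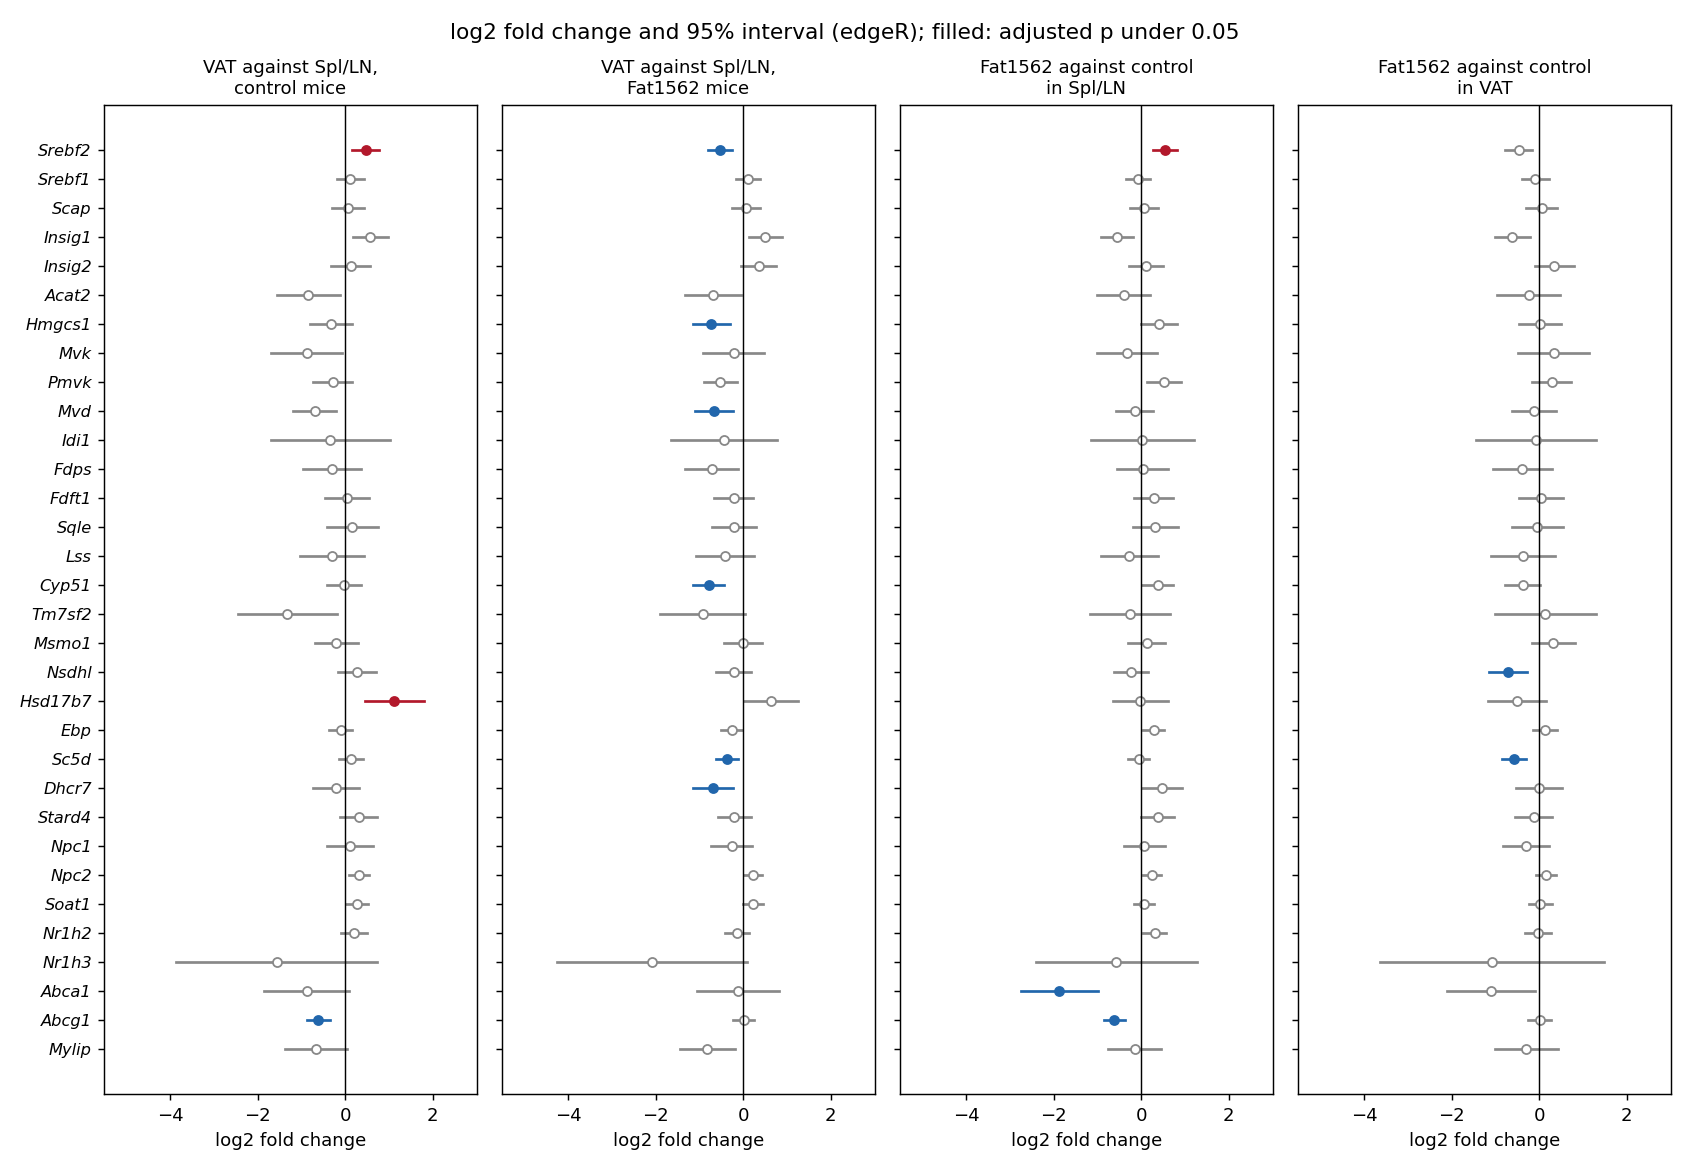
Log2 fold changes of the 32 genes (rows) in the 4 comparisons (panels), with 95% intervals of the edgeR fit, filled where the gene was called. In Fat1562 mice, 24 of the 32 points lie below 0 for VAT against Spl/LN.

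Srebf2, which encodes SREBP-2, differed between the 2 tissues in its response to Fat1562. Its normalized counts were 516, 596 and 531 in control Spl/LN, 756, 885 and 737 in Spl/LN after Fat1562, 849 and 666 in control VAT, and 562, 469 and 610 in VAT after Fat1562. The groups did not overlap in any of the 4 comparisons: control VAT and Fat1562 Spl/LN were high, and control Spl/LN and Fat1562 VAT were low. Spl/LN rose from 548 ± 42.3 (SD, n = 3) to 793 ± 80.6 (n = 3) after Fat1562, a log2 fold change of 0.53 (SE 0.13, adjusted p = 0.0279). In VAT the means were 757 ± 129 (n = 2) and 547 ± 71.7 (n = 3), a log2 fold change of -0.47 (SE 0.14) that edgeR did not call (adjusted p = 0.0553) and DESeq2 did (0.0228). The interaction, which tests the difference between these effects, was -1.004 (SE 0.19, adjusted p = 0.00703). In such bulk libraries, fewer cells expressing a gene and less RNA per cell cannot be told apart.

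Accordingly, the tissue difference of Srebf2 had opposite signs with and without the peptide. VAT was higher than Spl/LN by 0.47 (SE 0.14, adjusted p = 0.0339) on the log2 scale in control mice, and lower in Fat1562 mice, at -0.53 (SE 0.13, adjusted p = 0.00923). The interaction call was lost without VAT control replicate 1 (adjusted p = 0.0653) and kept without each of the other 10 libraries. The Spl/LN call was lost without Spl/LN control replicate 1 (adjusted p = 0.0766) or 3 (0.0586) and without Spl/LN Fat1562 replicate 1 (0.0572) or 2 (0.159). The control tissue call was lost without Spl/LN control replicate 1 (0.0848) or 3 (0.0613) and without VAT control replicate 1 (0.388), and also with quantile normalization (0.0640) or only the groups compared (0.0697). The tissue call after Fat1562 was lost without Spl/LN Fat1562 replicate 2 (0.0591) or VAT Fat1562 replicate 2 (0.0630). Srebf2 lies on chromosome 15 (82147181 to 82205379, GRCm38, by GENCODE), and 0.878% of its 38-base stretches occur in other genes.

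The other 4 genes of SREBP control were not called by the main edgeR fit in any comparison, and DESeq2 called Insig1 in 3. Insig1, which encodes a sterol-sensing anchor of SCAP and is itself an SREBP target, came closest. It measured 195 ± 7.49 in control Spl/LN, 133 ± 21.5 in Spl/LN after Fat1562, 290 ± 54.5 in control VAT and 190 ± 16.1 in VAT after Fat1562, and its groups did not overlap in any of the 4 comparisons. Its log2 fold changes for Fat1562 were -0.55 in Spl/LN (adjusted p = 0.0955) and -0.61 in VAT (0.0592), with an interaction of -0.06 (95% interval -0.61 to 0.49). VAT against Spl/LN gave 0.57 (0.0502) in control mice and 0.51 (0.0628) in Fat1562 mice. DESeq2 gave adjusted p-values of 0.0336 and 0.0482 for these tissue differences and 0.0302 for Fat1562 in VAT, and edgeR with a filter at a mean above 50 gave 0.0459 between control tissues and 0.0441 for Fat1562 in VAT. Insig1 thus pointed the same way in both tissues, whereas Srebf2 pointed in opposite ways.

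Insig2, the second anchor, had group means between 200 and 276, Scap between 373 and 405, and Srebf1, which encodes the fatty acid regulator SREBP-1, between 732 and 839. Per kilobase of exon, Srebf1 (130 to 149 normalized counts) was above Srebf2 (76.1 to 110) in group mean.

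**Figure D3:**
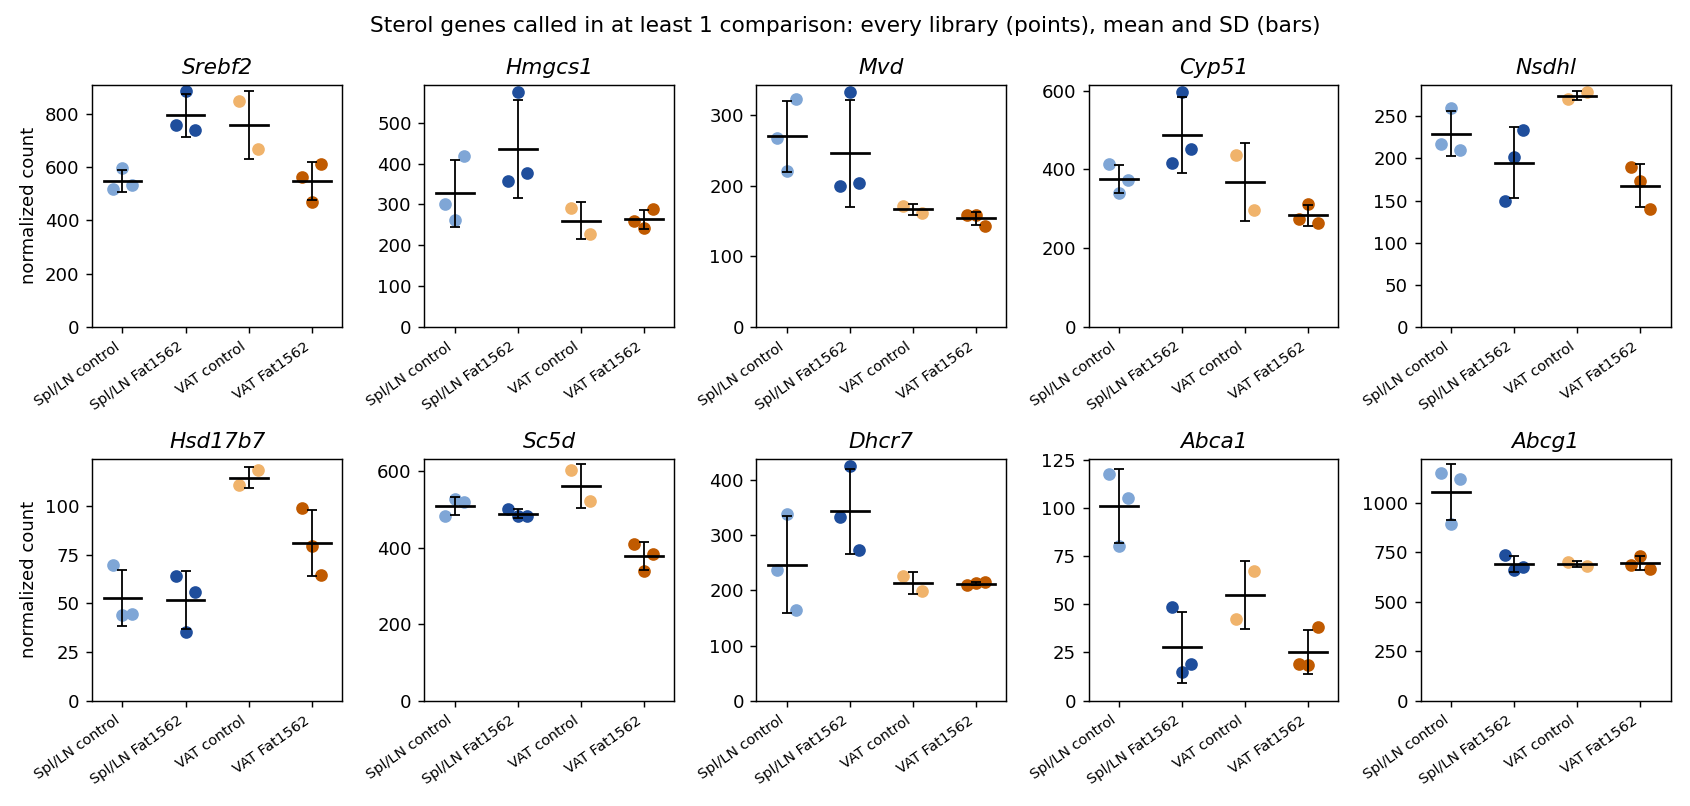
Normalized counts (vertical axes, linear) of the 10 genes called in any comparison, one point per library in the 4 groups, with the mean and the SD as a bar. Abcg1 is high in control Spl/LN alone (892 to 1150 against 661 to 734 in the other groups), and Srebf2 is high in Spl/LN after Fat1562 and in control VAT.

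Of the 18 synthesis enzymes, 17 had a negative log2 fold change for VAT against Spl/LN in Fat1562 mice, with a median of -0.42. Of the 18, 5 were called lower (27.8%, against 6.73% of all genes) and 0 higher, where 1 was higher at an unadjusted p under 0.05 and DESeq2 called 0. In control mice the split was 13 negative and 5 positive, with a median of -0.25. The median was -0.07 without Spl/LN control replicate 3 and -0.06 without VAT control replicate 2, with 10 negative and 8 positive in the latter case. In control mice 1 was called higher and 0 lower by edgeR, with 4 lower at an unadjusted p under 0.05 and 1 lower by DESeq2. The difference between both tissue effects, tested as the interaction, was called for 0 of the 18, with 2 at an unadjusted p under 0.05 and 0 called by DESeq2. The larger number of calls after Fat1562 is therefore not shown to be a difference between the mice.

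Hmgcs1 and Mvd act before squalene. Hmgcs1, the synthase that makes HMG-CoA, gave 302, 262 and 419 normalized counts in control Spl/LN, 357, 575 and 378 in Spl/LN after Fat1562, 292 and 229 in control VAT, and 260, 243 and 288 in VAT after Fat1562. Every Fat1562 library from Spl/LN was above every Fat1562 library from VAT, and the log2 fold change was -0.72 (SE 0.20, adjusted p = 0.0200). Hmgcs1 shares 12.5% of its 38-base stretches with other genes, chiefly the antisense gene Gm48342, and counting is not stated to have used strand.

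Mvd, which decarboxylates mevalonate pyrophosphate to the first isoprene unit, gave 267, 221 and 322 in control Spl/LN, 200, 333 and 204 in Spl/LN after Fat1562, 172 and 161 in control VAT, and 159, 159 and 142 in VAT after Fat1562. All 5 VAT libraries were below all 6 Spl/LN libraries. The log2 fold change was -0.67 (SE 0.21, adjusted p = 0.0348) in Fat1562 mice and -0.70 (adjusted p = 0.0515, DESeq2 0.0346) in control mice.

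Cyp51, Sc5d and Dhcr7 act after squalene. Cyp51, the lanosterol demethylase, gave 413, 341 and 372 normalized counts in control Spl/LN, 416, 597 and 451 in Spl/LN after Fat1562, 437 and 297 in control VAT, and 274, 313 and 263 in VAT after Fat1562. The 3 VAT libraries after Fat1562 were lower than all Spl/LN libraries. The tissue difference in Fat1562 mice was -0.78 (SE 0.17, adjusted p = 0.00377), and this call was kept under all 18 alternatives. In control mice it was -0.03, and the interaction was -0.75 (adjusted p = 0.117).

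Sc5d, a desaturase near the end of the pathway, gave 482, 528 and 519 in control Spl/LN, 502, 482 and 482 in Spl/LN after Fat1562, 602 and 521 in control VAT, and 411, 338 and 383 in VAT after Fat1562. Only the VAT libraries after Fat1562 stood apart, below the other 8. Sc5d was called lower there both against Spl/LN after Fat1562 (-0.37, SE 0.12, adjusted p = 0.0398) and against control VAT (-0.57, SE 0.13, adjusted p = 0.00975). Its interaction was -0.51 (adjusted p = 0.124).

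Dhcr7, the reductase that gives cholesterol from its immediate precursor, gave 238, 339 and 164 in control Spl/LN, 334, 426 and 273 in Spl/LN after Fat1562, 227 and 199 in control VAT, and 209, 213 and 215 in VAT after Fat1562. The Spl/LN libraries varied widely while the VAT libraries lay close together. In Fat1562 mice the tissue difference was -0.69 (SE 0.22, adjusted p = 0.0409).

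The highest library of 7 of the 18 enzymes (Hmgcs1, Mvd, Idi1, Fdft1, Sqle, Cyp51 and Dhcr7) was Spl/LN Fat1562 replicate 2. Without it, 15 of 18 enzymes remained negative for VAT against Spl/LN in Fat1562 mice, with a median of -0.39. The calls of Hmgcs1 (adjusted p = 0.143), Mvd (0.236), Dhcr7 (0.204) and Sc5d (0.0891) were then lost. Leaving out other Fat1562 libraries also lost calls. Hmgcs1 was lost without VAT replicate 1 (0.0649) or 2 (0.0871), and Mvd without VAT replicate 1 (0.0830), 2 (0.0843) or 3 (0.103). Dhcr7 was lost without Spl/LN replicate 1 (0.0886) or VAT replicate 1 (0.115), 2 (0.111) or 3 (0.0898), and Sc5d without Spl/LN replicate 1 (0.117) or 3 (0.0857) or VAT replicate 2 (0.179) or 3 (0.0792), and also with no filter on low counts (0.123).

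Nsdhl and Hsd17b7 changed in other comparisons. Nsdhl, which with its partner enzymes removes the methyl groups at carbon 4 of the sterol ring, fell in VAT after Fat1562. It gave 217, 260 and 210 normalized counts in control Spl/LN, 150, 201 and 233 in Spl/LN after Fat1562, 271 and 279 in control VAT, and 190, 173 and 140 in VAT after Fat1562. The VAT groups did not overlap, at -0.71 on the log2 scale (SE 0.21, adjusted p = 0.0411). This call was lost without Spl/LN Fat1562 replicate 2 (0.0560), VAT control replicate 1 (0.151) or 2 (0.185) and VAT Fat1562 replicate 2 (0.0966) or 3 (0.139). The call of Sc5d in VAT was lost without VAT control replicate 1 (0.144) or VAT Fat1562 replicate 2 (0.0559).

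Hsd17b7, the ketoreductase of the same demethylation, was the enzyme called higher in VAT. It gave 69.6, 43.8 and 44.8 in control Spl/LN, 64.0, 35.3 and 56.1 in Spl/LN after Fat1562, 111 and 119 in control VAT, and 99.1, 79.5 and 64.8 in VAT after Fat1562. All 5 VAT libraries but VAT Fat1562 replicate 3 exceeded all Spl/LN libraries. In control mice VAT was 2.17-fold higher (log2 fold change 1.12, SE 0.32, adjusted p = 0.0226), and in Fat1562 mice the estimate was 0.64 (adjusted p = 0.168). The control call was lost without Spl/LN control replicate 2 (0.0662) and without VAT control replicate 1 (0.0881) or 2 (0.121), and also with only the groups compared (0.0601).

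The remaining 11 enzymes were not called by the main edgeR fit. Their group means ran from 13.1 for Idi1, the isoprene isomerase, to 793 for Ebp, a sterol isomerase that was also the highest enzyme per kilobase (261 to 343). Acat2 shares 41.8% of its 38-base stretches with other genes, Fdft1 29.6%, Fdps 27.4% and Idi1 26.4%, so their levels are uncertain. Pmvk, a mevalonate pathway kinase, had log2 fold changes of 0.53 (adjusted p = 0.121) after Fat1562 in Spl/LN and -0.52 (0.0649, or 0.0397 with only the groups compared) for VAT against Spl/LN in Fat1562 mice. Within Spl/LN, Fat1562 against control called 0 of the 18 enzymes by edgeR, DESeq2 or limma. Of the estimates, 10 were positive and 8 negative, 4 were higher and 0 lower at an unadjusted p under 0.05, and the median was 0.03.

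T cells raise sterol synthesis with division, so 20 mitosis genes were read beside the enzymes. In control mice, 9 of the 20 were called lower in VAT than in Spl/LN (45%, against 7.17% of all genes) and 0 higher, with a median of -0.51 where the enzymes had -0.25. After Fat1562, 7 were called higher in VAT than in Spl/LN (35%, against 8.26%) and 0 lower, with a median of 0.41 where the enzymes had -0.42. Both lists were thus lower in VAT of control mice by their medians, and of opposite sign in Fat1562 mice.

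For Fat1562 against control in VAT, 12 mitosis genes were called higher (60%, against 4.32%) and 0 lower, with a median of 0.72. The enzyme median there was -0.06, but it was 0.15 without VAT control replicate 1 and -0.29 without VAT control replicate 2, so its sign rests on these libraries. In Spl/LN, Fat1562 against control called 0 of the 20 by edgeR (5 at an unadjusted p under 0.05), with a median of -0.20 beside 0.03 for the enzymes. The part of cell division in the enzyme results was not tested.

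The transport and storage genes were called in no comparison by the main edgeR fit, and DESeq2 called Npc2 in 1. Npc2, which hands cholesterol on inside the lysosome, was the most abundant of the 32 genes per kilobase (363 to 503 in group mean). Its estimates were 0.31 for VAT against Spl/LN in control mice (adjusted p = 0.0567, DESeq2 0.0296) and 0.23 in Fat1562 mice (0.124). Its membrane partner Npc1 had group means between 134 and 163. Soat1, which esterifies cholesterol for storage, had means between 757 and 929, and Stard4, a soluble sterol carrier, between 173 and 225.

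Both exporters fell in Spl/LN after Fat1562. Abcg1, which passes cholesterol to high-density lipoprotein, gave 1150, 892 and 1119 normalized counts in control Spl/LN, 734, 661 and 674 in Spl/LN after Fat1562, 700 and 677 in control VAT, and 687, 731 and 662 in VAT after Fat1562. The 3 control Spl/LN libraries were higher than the other 8, which lay close together. Means were 1053 ± 141 (SD, n = 3), 690 ± 39.3 (n = 3), 689 ± 16.0 (n = 2) and 693 ± 34.9 (n = 3).

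Abcg1 fell in Spl/LN after Fat1562 by 0.61 on the log2 scale (SE 0.11, adjusted p = 0.00355), and the estimate in VAT was 0.01 (95% interval -0.25 to 0.27). VAT was below Spl/LN in control mice, at -0.61 (SE 0.13, adjusted p = 0.00221), and not called in Fat1562 mice (0.01, 95% interval -0.23 to 0.24). The Spl/LN call and the control tissue call were kept under all 18 alternatives. The interaction was 0.62 (SE 0.17, adjusted p = 0.0479) and was lost under 12 of 17 alternatives, including every left-out library but Spl/LN control replicate 2, with adjusted p from 0.0118 to 0.152.

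Abca1, which loads cholesterol onto lipid-poor apolipoprotein, gave 118, 80.3 and 105 in control Spl/LN, 48.7, 15.0 and 19.2 in Spl/LN after Fat1562, 42.4 and 67.5 in control VAT, and 19.1, 18.3 and 38.4 in VAT after Fat1562. Control libraries were above Fat1562 libraries of the same tissue without overlap, at raw counts between 14 and 122. In Spl/LN the level fell 3.65-fold (log2 fold change -1.87, SE 0.42, 95% interval -2.75 to -0.98, adjusted p = 0.0176). In VAT the estimate was -1.10 (adjusted p = 0.185), and the interaction of 0.77 (adjusted p = 0.614) did not separate both tissues. The Spl/LN call was lost without Spl/LN Fat1562 replicate 2 (0.107) or 3 (0.0884). Neither Abca1 nor Abcg1 shares over 1% of its 38-base stretches with other genes.

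Macrophages also express both exporters, so their markers were read beside them. The 8 macrophage markers summed to 41.2 to 118 normalized counts in control Spl/LN, 19.1 to 77.0 in Spl/LN after Fat1562, 26.2 to 55.4 in control VAT and 24.7 to 31.5 in VAT after Fat1562. Only 2 of the 8 passed the filter, Fcgr1 was at 0 in 9 of the 11 libraries and Adgre1 in 6. The highest sum came with 73 Lyz2 counts in Spl/LN control replicate 1, which also held the highest Abca1 (118) and Abcg1 (1150) of the 11 libraries. Spl/LN control replicate 3 had the lowest sum of its group (41.2), with Abca1 at 105 and Abcg1 at 1119. Lyz2 had raw counts of 73, 7 and 15 in control Spl/LN and 4, 12 and 5 after Fat1562. Cd68 went the other way, with 22, 8 and 5 in control Spl/LN and 10, 24 and 31 after Fat1562. The Spl/LN groups overlapped in the marker sums. The part of macrophage RNA in the exporter results was not tested.

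Marker sums of other cells were below those of the Treg markers, but some moved with the comparisons. The 5 dendritic cell markers summed to 62.8 to 79.3 normalized counts in control Spl/LN, 50.6 to 56.7 in Spl/LN after Fat1562, 111 to 121 in control VAT and 122 to 226 in VAT after Fat1562. Of the 2 tested, Xcr1 was called higher in VAT in control (2.28 on the log2 scale) and Fat1562 mice (1.91), and Zbtb46 in Fat1562 mice (1.61), whereas Flt3 was at 0 in 3 libraries and Itgax in 4. The 5 CD8 T and NK markers summed to 101 to 131, 96.3 to 152, 174 to 195 and 97.9 to 137 in the same order of groups. Of the 2 tested, Klrb1c had raw counts of 1, 2 and 4 in control Spl/LN, 17, 28 and 38 after Fat1562, and at most 4 in VAT. It was called higher in Spl/LN after Fat1562, and lower in VAT than in Spl/LN of Fat1562 mice. Cd8b1, the other tested marker, had raw counts of 62 to 158 and was not called, and its estimates there had the opposite sign. Cd8a was at 0 in 9 libraries.

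The 5 B cell markers summed to 122 to 226, 153 to 190, 100 to 166 and 69.8 to 107, and Cd79b, 1 of 2 tested, was called lower in VAT in Fat1562 mice (-1.18). The 6 stromal and endothelial markers summed to 496 to 529, 512 to 591, 251 to 305 and 446 to 630. Pecam1, 1 of 2 tested, had raw counts of 188 to 615, whereas Col3a1 and Dcn were at 0 in 7 libraries. Cdh5, the other endothelial marker of the list, had raw counts of 0 to 4, and Col1a1 had 8 to 39. Pecam1 was called lower in VAT of control mice (-0.89) and higher in VAT after Fat1562 than in control VAT (0.998). The part of such cells in the tissue and peptide results of the sterol genes was not tested.

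Of the LXR genes, Nr1h2 (group means 596 to 736) was the more abundant, at 178 to 220 per kilobase, against 0.932 to 6.08 for Nr1h3, the lowest of the 32. Nr1h3 reached 37 raw counts in Spl/LN control replicate 3 and 29 in Spl/LN Fat1562 replicate 3, and at most 7 in the other 9 libraries. Mylip, which encodes the LXR-induced ligase that degrades lipoprotein receptors, had means between 125 and 245, and its estimate for VAT against Spl/LN in Fat1562 mice was -0.82 (adjusted p = 0.0756, DESeq2 0.0432, and 0.00203 with no filter). These 3 genes were called in no comparison by the main edgeR fit. In Spl/LN, where the exporters fell, Nr1h2 gave 538, 690 and 560 in control and 704, 696 and 809 after Fat1562. The groups did not overlap, with an estimate of 0.31 that was not called (unadjusted p = 0.0256, adjusted p = 0.195).

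**Figure D4:**
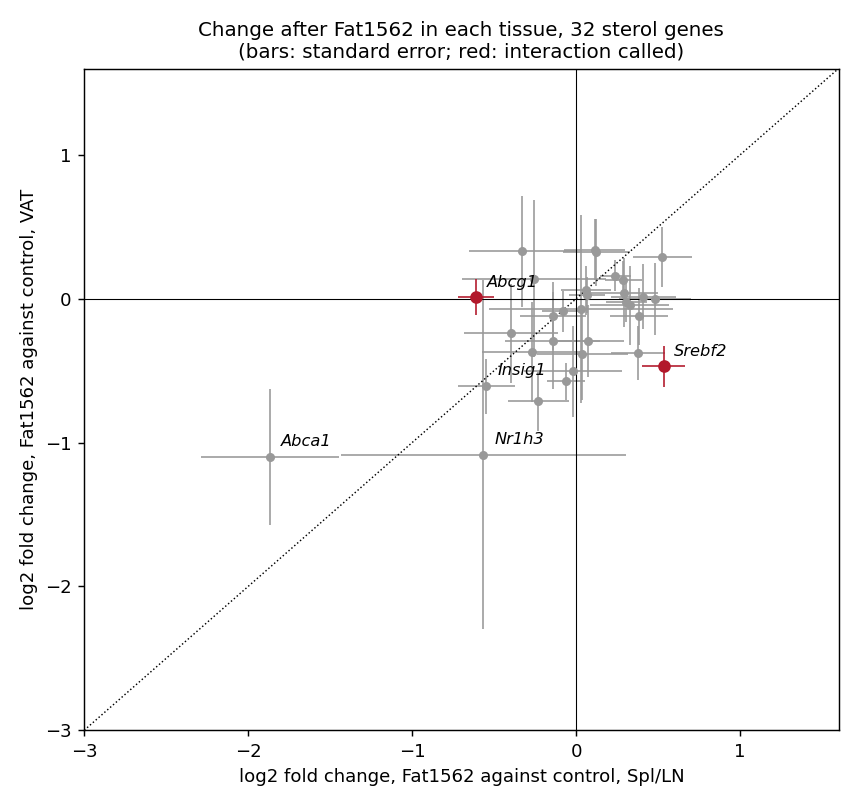
Log2 fold change of Fat1562 against control in Spl/LN (horizontal) and in VAT (vertical) for the 32 genes, with the SE of each fit as bars and the genes with a called interaction in red. Srebf2 lies at 0.53 and -0.47, Abcg1 at -0.61 and 0.01, and Abca1 at -1.87 and -1.10.

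A wider list of 51 genes of SREBP processing, fatty acid synthesis, isoprenoid branches, sterol transport and LXR targets was read next to the 32. Of these, 43 were tested. In control mice, 4 were called higher in VAT than in Spl/LN (9.30%, against 9.09% of all genes) and 4 lower (9.30%, against 7.17%), shares near those of all genes. Elovl6, a fatty acid elongase, was higher (1.29 on the log2 scale, adjusted p = 0.00248), as was Lpcat3, an LXR-regulated phospholipid enzyme (0.56, 0.00531), whereas the desaturase Scd2 (-1.54, 0.00282) and the sterol reductase Lbr (-0.79, 0.000160) were lower. In Fat1562 mice, 1 was called higher (2.33%, against 8.26%), from the isoprenoid branches, and 5 lower (11.6%, against 6.73%). Lipa, the lysosomal lipase that frees cholesterol from its esters, was among those lower (-0.46, 0.0179). So was Gramd1a, a sterol carrier between plasma membrane and endoplasmic reticulum (-0.58, 0.0132).

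Fat1562 in Spl/LN called 2 of the 43 higher (4.65%, against 2.58%) and 0 lower (1.40% of all genes), namely Gramd1a (0.80, adjusted p = 0.00520) and Syvn1, a ubiquitin ligase of the endoplasmic reticulum (0.56, 0.0468). In VAT, 1 was called higher (2.33%, against 4.32%), from the sterol transport genes, and 3 lower (6.98%, against 3.97%). Acss2, which makes acetyl-CoA from acetate and is an SREBP target, fell by 1.25 on the log2 scale (adjusted p = 0.00138), and Nceh1, a cholesteryl ester hydrolase, by 0.50 (0.0492). The interaction was called for 1 gene, Scd2 (1.61, adjusted p = 0.0407; 2.33%, against 1.70% called higher over all genes). The medians of the 43 lay between -0.07 and 0.03 in the 4 comparisons and the interaction.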

How the data were processed

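Smart-seq2 libraries (poly(A) primed, PCR amplified, paired reads of 38 bases, no molecular identifiers named) were deposited by the authors as one table of raw counts per gene, without normalization. The submitters' processing notes name STAR 2.5.4, featureCounts and mm10. The methods name Cuffquant and a filter on normalized reads, which these counts are not. Use of strand is not given in the sources used here. All 11 columns matched a label, with 0 left unmatched.

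Library totals were first made equal, and a gene entered the test if any group mean then exceeded 10. The test was that of edgeR 4.0.16 (R 4.3.3) with TMM normalization, quasi-likelihood dispersions and one fit of the 4 groups. P-values were adjusted by the Benjamini-Hochberg method over all 12932 genes tested. The common biological coefficient of variation was 19.1%. The steps were tested on simulated data. Positions, exon lengths and shared 38-base stretches came from GENCODE vM21 (GRCm38). Standard errors do not cover molecules lost before amplification.

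The 32 genes, the wider list, the mitosis genes and the markers were chosen with earlier results of these data known. By the rule for named genes, all 32 were described by role, with every library's value for those called. Called genes of the wider list could be named, and not all of them were. Insig1, Npc2, Pmvk, Nr1h2 and Mylip were given their estimates after their values were seen. Of the wider list, 7 genes did not pass the filter and 1 symbol had no row. Alternatives were no filter, a mean above 50, limma 3.58.1 after quantile normalization, median-of-ratios size factors, DESeq2 1.42.0, only the groups compared, the replicate number as a block, and each library left out.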

Additional observations from a re-analysis of the deposited data

Results flagged for a closer look

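Effects of Fat1562 that differ between both tissues by the interaction test were marked. Srebf2 had an interaction of -1.004 on the log2 scale (SE 0.19, edgeR adjusted p = 0.00703), with Spl/LN at 0.53 and VAT at -0.47. Without VAT control replicate 1 its adjusted p was 0.0653, and over all 17 alternatives it ran from 4.78e-05 to 0.0653.

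Abcg1 had an interaction of 0.62 (SE 0.17, adjusted p = 0.0479), with Spl/LN at -0.61 and VAT at 0.01. It lost the call under 12 of 17 alternatives, with adjusted p from 0.0118 to 0.152. Over all genes tested, 1.70% had an interaction called higher and 2.02% one called lower.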

How the results depend on the processing

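Of 16 called results of the 32 genes, 3 were kept under every alternative (Abcg1 after Fat1562 in Spl/LN, Abcg1 between tissues of control mice, Cyp51 between tissues of Fat1562 mice), 13 were lost under at least 1, and 0 reversed. For control mice, the number of genes called lower in VAT was 2 with no filter, a mean above 50, quantile normalization or DESeq2, the number called higher was 1 with quantile normalization, 4 with DESeq2, 0 with only the groups compared and 1 with the replicate block, and the median was 0.0229 with a mean above 50. In Fat1562 mice DESeq2 called 1 higher. For Fat1562 in VAT, the number called lower was 4 with a mean above 50, 4 with DESeq2 and 1 with the block. The interaction called 0 higher with median-of-ratios factors and 0 with the block. With each library left out, the control tissue comparison called 0 to 3 higher and 1 to 2 lower (median -0.29 to 0.0349), the Fat1562 tissue comparison 0 to 1 higher and 1 to 8 lower (-0.33 to -0.21), Fat1562 in Spl/LN 0 to 1 higher and 1 to 2 lower (-0.01 to 0.12), Fat1562 in VAT 0 higher and 0 to 4 lower (-0.20 to -0.00286), and the interaction 0 to 1 higher and 0 to 1 lower (-0.26 to -0.0142). The causes were not tested. Quantile normalization moved the split of all called genes between tissues to 1064 higher and 1247 lower in control mice (1175 and 927 in the main fit) and 935 and 1037 in Fat1562 mice (1068 and 870). Without a filter, the median interaction of all genes was 0.13.

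Across all groups, deviations of libraries with the same replicate number had r from -0.0395 to 0.0555 (15 pairs), against -0.0576 to 0.0395 in 30 pairs of other numbers. Between tissues of the same treatment, same-number pairs gave 0.0373 and 0.0303 in control mice and 0.0555, 0.03 and 0.0299 in Fat1562 mice. Pairs of other numbers there ran from -0.0576 to 0.0277. Deviations were taken from the group mean, so those of the 2 control VAT libraries are mirror images. Their other-number pairs with Spl/LN control replicates 1 and 2 therefore repeat the same values as -0.0373 and -0.0303, and add no separate evidence. The labels do not say whether the numbers mark tissues of the same mouse, and these small correlations cannot settle it. With the replicate number as a block, the calls of Nsdhl in VAT (adjusted p = 0.0650), Srebf2 between control tissues (0.0607), Mvd (0.05003) and Sc5d (0.0509) between tissues of Fat1562 mice and the Abcg1 interaction (0.0664) were lost. Low counts limit what can be seen of Idi1, Tm7sf2 and Nr1h3, whose group means lay between 2.34 and 34.2.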
